A study of Drosophila melanogaster with 15 samples.

Results

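The response of the *DAT* mutant to amphetamine (AMPH) was measured in 7 of the 15 RNA-seq libraries of the series, chosen by strain alone. *DAT* encodes the dopamine transporter of Drosophila melanogaster, and the mutant carried the fumin allele (dDATfmn), in which part of a roo transposon sits in an intron of the gene and brings an in-frame stop. The allele had been back-crossed for 7 generations into the isogenic white-eyed strain w1118, which was also the wild type (WT) of the study, so both strains shared the w1118 background. All flies were males, 7 days old when they were moved to agar and sucrose food without drug (vehicle) or with 10 mM AMPH, and they fed on it for 48 h. *DAT* mutant AMPH comprised replicates 1, 2 and 3, and *DAT* mutant vehicle replicates 1 to 4. The libraries were made from polyadenylated RNA, of single whole brains by one account of the sources and of heads by another, and genes of the eye, fat body and muscle were detected in all 7. The main comparison set the 3 AMPH libraries against vehicle replicates 1, 3 and 4 (6 libraries). Vehicle replicate 2 stood apart from every other library and served as a check. The sources do not say whether replicates came from separate cultures, so p-values measure the spread between these samples.

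AMPH is taken up by monoamine transporters, empties dopamine from vesicles and drives it out of the cell through the dopamine transporter, and loss of the transporter in flies leaves dopamine outside the cell for longer. A comparison within the mutant therefore asks what AMPH in the food does to transcript levels when this transporter does not work. Feeding on a drug can also engage the xenobiotic response of insects, in which glutathione S-transferases, cytochromes P450 and UDP-glycosyltransferases modify and conjugate foreign compounds. It can also alter how much a fly eats, and storage, gluconeogenic and insulin-related genes of the fat body and brain respond to feeding. How much these flies ate was not given in the sources used here, and its part in the values was not tested.

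The values were RPKM (mapped reads per kilobase of transcript, scaled to library size), and the depth read from the steps between low values was 11.1 to 46.9 M reads per library in *DAT* mutant vehicle and 19.5 to 43.6 M in *DAT* mutant AMPH, with vehicle replicates 2, 3 and 4 all at or under 12.0 M. At 11.1 M, a transcript of 1 kb at 1 RPKM rests on about 11.1 reads. The Spearman correlation of vehicle replicate 2 with the other vehicle libraries was 0.811 to 0.836 across 9952 genes, against at least 0.98 for the closest pair of every other library, and its log2 level relative to the other vehicle libraries went from 0.48 in the shortest of 4 equal length classes of transcripts to −1.25 in the longest. In the main comparison the median log2 fold change went from 0.00 to −0.10 over the same classes. Of the genes called changed below, the shortest class held 219 higher and 252 lower on AMPH, and the longest 80 higher and 279 lower. The part of transcript length in these calls was not tested.

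*DAT* itself did not pass the test. The gene (chromosome 2R, 12446062 to 12452763 of dm3, minus strand) was listed at 2.15, 2.29 and 2.37 RPKM in vehicle replicates 1, 3 and 4, at 1.98 in vehicle replicate 2 and at 1.81, 1.55 and 1.23 in AMPH replicates 1, 2 and 3. Its level was low in all 7 libraries, and all 3 AMPH libraries lay below all 4 vehicle libraries (log2 fold change -0.38, SE 0.14, adjusted p = 0.128). The transposon allele leaves reads of the gene, so this level does not check the strain.

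Genes with at least 1 RPKM in 3 libraries were tested with limma on log2(RPKM + 1), and a gene was counted as changed when its p-value, adjusted by Benjamini-Hochberg over all genes tested, was under 0.1. All fold changes are on that scale, where low genes change by less than their RPKM ratio. SE is the standard error from limma, and n was 3 in each group. Of 9952 genes tested, 1901 (19.1%) differed between AMPH and vehicle in the *DAT* mutant, 695 (6.98%) of them higher and 1206 (12.1%) lower on AMPH. The median absolute log2 fold change of the changed genes was 0.60. A log2 fold change of at least 1 was reached by 181 higher and 242 lower genes, and one of at least 2 by 41 higher and 30 lower genes. In 1875 of the 1901 the groups did not overlap, which was the case for 33.8% of all genes tested. The median log2 fold change of all genes was −0.05, and after median centring or quantile normalization the split was 1002 higher and 1066 lower, or 1009 higher and 1067 lower. With vehicle replicate 2 included, 276 of 10015 genes (2.76%) passed, 113 higher (1.13%) and 163 lower (1.63%), all of them among the 1901, and 1781 of the 1901 kept their direction. Of the 149 changed genes named here, 69 also passed with it. The count was 1093 without vehicle replicate 4, 1122 without AMPH replicate 3 and 1228 without AMPH replicate 2, and 874 of the 1901 genes were called whichever of the 6 libraries was left out.

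**Figure D1:**
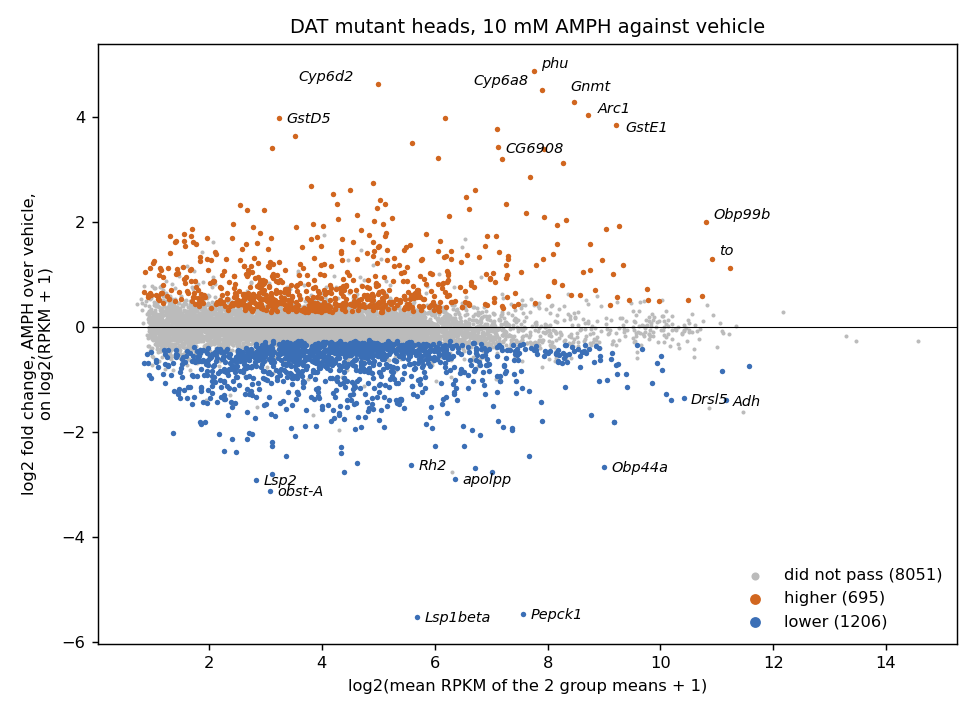
Log2 fold change of each gene on AMPH (y axis, on log2(RPKM + 1)) against its mean level (x axis, log2 RPKM) in *DAT* mutant heads, over 3 AMPH and 3 vehicle libraries. Each point is 1 of 9952 genes, with 695 higher genes in orange, 1206 lower genes in blue and the others in grey, and *Lsp1beta* and *Pepck1* lie below all other changed genes.

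Of the 12 largest rises among genes averaging at least 5 RPKM, 6 were glutathione S-transferases or cytochromes P450. The 12 were *phu*, *Cyp6d2*, *Cyp6a8*, *Gnmt*, *Arc1*, *CG11425*, *GstD5*, *GstE1*, *CR10102*, *Cyp12d1-p*, *GstD2* and *CG6908*, with log2 fold changes of 4.86 to 3.42. The 12 largest falls were *Lsp1beta*, *Pepck1*, *obst-A*, *Lsp2*, *apolpp*, *CG8654*, *Nplp3*, *CG32444*, *Drsl4*, *Obp44a*, *Rh2* and *CG5162*, from -5.51 to -2.59, and they included storage, gluconeogenic, cuticle and secreted proteins. *phu*, named Alp3 in the RefSeq synonyms, had the largest rise. It was at 12.8, 8.61 and 18.6 RPKM in vehicle replicates 1, 3 and 4 and at 585, 329.6 and 331 in AMPH replicates 1, 2 and 3, a ratio of group means of 31.1 (log2 fold change 4.86, SE 0.30, adjusted p = 0.00016), and vehicle replicate 2 at 16.2 RPKM lay among the other vehicle libraries.

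Glutathione S-transferases join glutathione to electrophilic compounds. Of 33 tested, 11 rose and 4 fell (45.5% called, against 19.1% of all genes), with a median log2 fold change of 0.23. With vehicle replicate 2 included, 9 rose and 1 fell. *GstE1* of the epsilon class was at 84.6, 68.03 and 68.9 RPKM in vehicle replicates 1, 3 and 4, at 75.05 in vehicle replicate 2 and at 1602, 808 and 936 in AMPH replicates 1, 2 and 3. Every AMPH library was above every vehicle library, by 15.1 times on the means (log2 fold change 3.84, SE 0.25, adjusted p = 0.000182). *GstD2* of the delta class went from 5.89, 6.20 and 8.21 RPKM on vehicle to 109, 94.1 and 60.8 on AMPH (log2 fold change 3.49, SE 0.22, adjusted p = 0.00016). Another member of that class, *GstD5*, was listed at 0 in vehicle replicates 1 and 4 and at 0.411 RPKM in replicate 3, and reached 19.7, 15.5 and 15.04 RPKM on AMPH (log2 fold change 3.97, adjusted p = 5.75e-05). As its vehicle levels lay under the filter, *GstD5* was tested only because it was high on AMPH, which also holds for *Cyp12d1-p*, *Cyp12d1-d* and *Ugt37A3* below. *GstE3* rose from 61.8, 43.9 and 42.3 to 326, 196 and 245 RPKM and *GstD3* from 12.4, 9.68 and 8.69 to 81.1, 46.0 and 45.4 RPKM, so all 5 genes kept their groups apart. The 4 that fell were *GstZ2* (-1.06), *GstE12* (-0.67), *GstE2* (-0.52) and *GstE14* (-0.50), of which *GstZ2* went from 63.4, 43.9 and 50.6 to 32.1, 21.4 and 21.1 RPKM. The calls were lost for *GstE12* without vehicle replicate 1 or 4 or AMPH replicate 2 or 3 (adjusted p 0.128 to 0.156) and for *GstE14* without vehicle replicate 1 or 3 or AMPH replicate 1 or 3 (adjusted p 0.102 to 0.123). Reads of near-identical members of this family, and of the P450 and UDP-glycosyltransferase families, may have been split between copies by the authors' counting.

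Cytochromes P450, which oxidise foreign compounds as well as hormones and lipids, moved in both directions: 20 of 68 tested rose and 18 fell (12 and 5 with vehicle replicate 2). The share called was 55.9%, against 19.1% of all genes. *Cyp6d2* was close to the filter on vehicle, at 1.30, 1.47 and 1.49 RPKM, and reached 69.5, 39.1 and 72.5 RPKM on AMPH (log2 fold change 4.62, SE 0.22, adjusted p = 5.75e-05). *Cyp6a8* went from 18.8, 16.6 and 17.6 to 649.5, 486 and 235 RPKM (log2 fold change 4.50, SE 0.32, adjusted p = 0.000293). Among the AMPH libraries, replicate 3 had the lowest level of *Cyp6a8* and the highest of *Cyp6d2*. The pair *Cyp12d1-p* and *Cyp12d1-d*, near-identical copies whose reads cannot be told apart here, went from under 1 RPKM in vehicle replicates 1, 3 and 4 to 29.3, 17.8 and 14.1 RPKM and 21.9, 12.6 and 10.2 RPKM (log2 fold change 3.64, adjusted p = 0.0002 and log2 fold change 3.41, adjusted p = 0.000328). Among the P450 genes that fell, *Cyp313a1* went from 215, 192 and 289 to 42.8, 68.03 and 75.6 RPKM (log2 fold change -1.90, adjusted p = 0.00265) and *Cyp4d21* from 130.5, 116 and 179 to 28.9, 40.9 and 41.95 RPKM (log2 fold change -1.90, adjusted p = 0.00136). The UDP-glycosyltransferases, which attach sugars, counted 4 rises and 3 falls in 18, 38.9% called (3 and 1 with vehicle replicate 2). *Ugt49B1* rose from 6.55, 6.22 and 6.64 to 31.6, 24.4 and 34.9 RPKM (log2 fold change 2.05, adjusted p = 0.0002), *Ugt49C1* by 1.83 and *Ugt37A3* by 1.86 on the log2 scale, and *Ugt50B3* had a log2 fold change of -1.04.

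**Figure D2:**
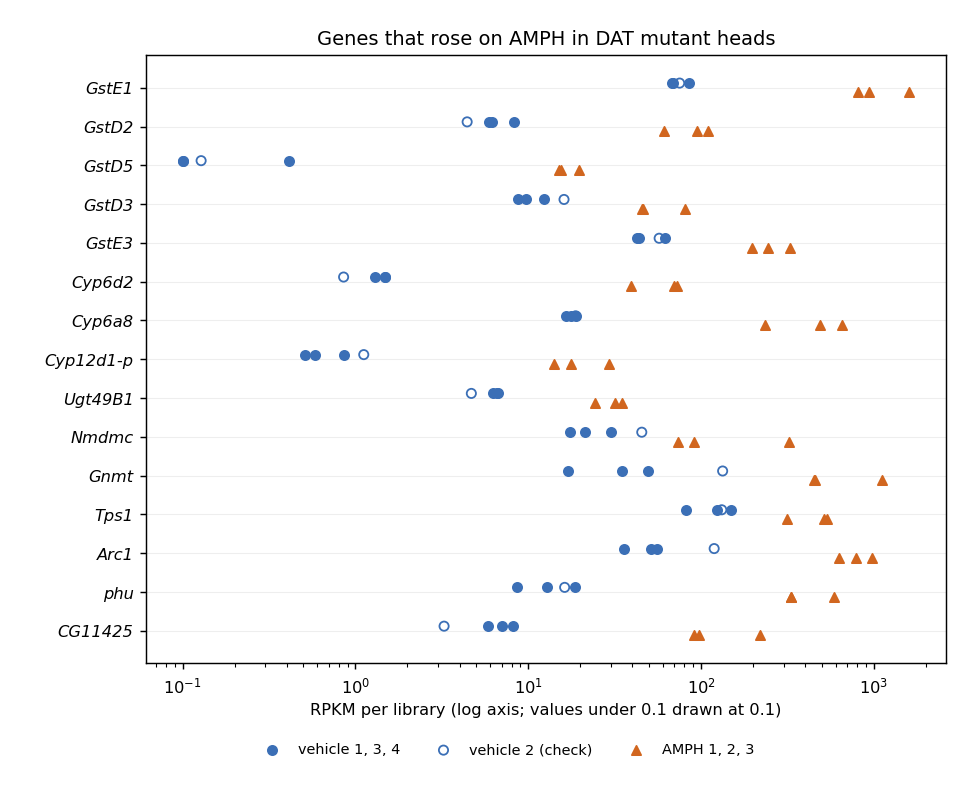
RPKM per library (x axis, log scale) of genes that rose on AMPH in *DAT* mutant heads. Filled circles are vehicle replicates 1, 3 and 4, open circles vehicle replicate 2 and triangles the 3 AMPH libraries, values under 0.1 RPKM are drawn at 0.1, and the triangles lie to the right of every circle of the same gene.

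Genes of glutathione and peroxide defence rose in 8 of 23 cases and fell in 3 (2 and 0 with vehicle replicate 2). The share called was 47.8%, against 19.1% of all genes. *Keap1*, which holds back the antioxidant regulator Cnc, was at 8.55, 8.78 and 10.1 RPKM on vehicle and at 16.5, 18.9 and 17.8 on AMPH (log2 fold change 0.89, SE 0.10, adjusted p = 0.00208), and the adjusted p was 0.117 with vehicle replicate 2. *Gclc*, the catalytic subunit of glutathione synthesis, went from 37.8, 36.9 and 39.5 to 75.7, 61.03 and 52.1 RPKM (log2 fold change 0.69, adjusted p = 0.0185, and 0.1865 with vehicle replicate 2). The peroxidases *Gtpx* and *Prx6b* rose by 1.29 and 1.73, with groups that did not overlap. Of 11 metal-handling genes 3 rose and 2 fell, 45.5% called (0 and 1 with vehicle replicate 2). The iron carrier *Tsf1* went from 569, 571 and 855 to 224, 178 and 207 RPKM (log2 fold change -1.69, adjusted p = 0.00148), while the ferritin subunits *Fer1HCH* and *Fer2LCH* were higher by 0.70 and 0.56, and vehicle replicate 2 overlapped the AMPH libraries for *Fer1HCH*. The metallothionein *MtnB* was near 1 RPKM (0.212, 0 and 1.20 RPKM on vehicle, 1.59, 2.55 and 1.75 on AMPH), and vehicle replicate 2 was at 18.3, above all AMPH libraries. The call of *MtnB* was lost without vehicle replicate 1 or 3 or AMPH replicate 2 or 3 (adjusted p 0.109 to 0.153) and that of *Fer2LCH* without vehicle replicate 3 or 4 or AMPH replicate 3 (adjusted p 0.111 to 0.122).

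Of 14 genes of one-carbon metabolism, which carries methyl groups, 5 rose and 0 fell by limma, also at an unadjusted p under 0.05 (2 rose with vehicle replicate 2). The share called was 35.7%, against 19.1% of all genes. *Gnmt*, which uses up S-adenosylmethionine to methylate glycine, was at 49.1, 16.9 and 34.7 RPKM on vehicle and at 1116, 458 and 448 on AMPH (log2 fold change 4.27, SE 0.45, adjusted p = 0.00136), with vehicle replicate 2 at 133. *Sam-S*, which makes S-adenosylmethionine, went from 111, 85.3 and 117 to 233, 185 and 178 RPKM (log2 fold change 0.93, adjusted p = 0.0101), and *Ahcy*, which clears the product of the methylation, was higher by 0.97, with vehicle replicate 2 among the AMPH libraries. *Nmdmc*, a mitochondrial folate enzyme that is also in the antioxidant list, went from 30.2, 17.5 and 21.4 to 321, 91.3 and 73.6 RPKM (log2 fold change 2.47, SE 0.50, adjusted p = 0.0179), and AMPH replicate 1 was above the other AMPH libraries for both *Gnmt* and *Nmdmc*. The smallest rise was that of *Cbs*, cystathionine beta-synthase (0.38), whose call was lost without vehicle replicate 1, 3 or 4 or AMPH replicate 1, 2 or 3 (adjusted p 0.108 to 0.195).

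*Lsp1beta* and *Pepck1* had the 2 largest falls among changed genes. *Lsp1beta*, a larval serum storage protein of the fat body, was at 129.6, 142 and 29.1 RPKM in vehicle replicates 1, 3 and 4, at 30.2 in vehicle replicate 2 and at 0.816, 1.24 and 0.449 in AMPH replicates 1, 2 and 3. The vehicle libraries spread widely, and all of them lay above every AMPH library (log2 fold change -5.51, SE 0.54, adjusted p = 0.00102, and adjusted p = 0.0075 with vehicle replicate 2). *Lsp2* went from 8.88, 19.9 and 6.56 to 0.425, 0.467 and 0.737 RPKM (log2 fold change -2.92, SE 0.33, adjusted p = 0.00185). Of the 3 larval serum and yolk proteins tested these 2 fell, and Yp3 was not called (log2 fold change −0.07, adjusted p = 0.789 by limma). *Pepck1*, the enzyme that commits the cell to gluconeogenesis, was at 633, 205 and 277 RPKM on vehicle and at 3.37, 11.2 and 6.85 on AMPH, 51.97 times lower on the means (log2 fold change -5.47, SE 0.47, adjusted p = 0.000647). *apolpp*, the precursor of the lipoprotein that carries fat in the haemolymph, went from 134, 130.1 and 167 to 10.6, 22.9 and 24.8 RPKM (log2 fold change -2.90, SE 0.29, adjusted p = 0.00106). In bulk RNA a lower level can come from fewer cells of a type or from less RNA per cell, which cannot be told apart here. Of the 6 fat body markers tested, 4 fell (*apolpp*, *Lsp1beta*, *Lsp2* and *FASN1*) and *Desat1* rose, 83.3% called against 19.1% of all genes. Their summed level overlapped between the groups, at 795 to 978 RPKM on vehicle and 624 to 1340 on AMPH.

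**Figure D3:**
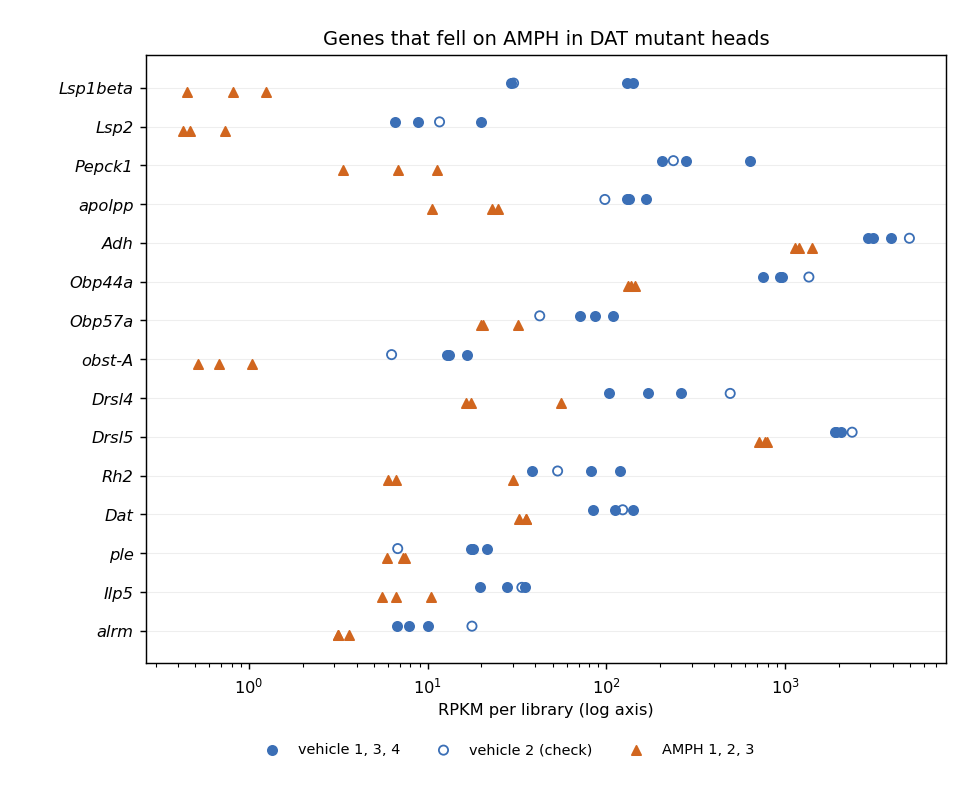
RPKM per library (x axis, log scale) of genes that fell on AMPH in *DAT* mutant heads, with vehicle replicates 1, 3 and 4 as filled circles, vehicle replicate 2 as open circles and the 3 AMPH libraries as triangles. Vehicle replicate 2 overlaps the AMPH libraries for *ple*.

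Other fuel genes moved both ways. The share called was 44.4% in the fasting list, 52.9% in fat synthesis and 57.1% in sugar genes, against 19.1% of all genes. The list of gluconeogenic and fasting genes had 3 rises and 5 falls in 18 (2 and 1 with vehicle replicate 2), with a median log2 fold change of −0.09. The triglyceride lipase *bmm* went from 23.03, 21.6 and 20.6 to 110.2, 48.2 and 53.6 RPKM (log2 fold change 1.56, adjusted p = 0.0112) and the lipase *Lip4* from 21.8, 10.3 and 14.1 to 67.3, 41.4 and 30.2 RPKM (log2 fold change 1.51, adjusted p = 0.0221). Of 17 genes of fat synthesis 5 rose and 4 fell (1 and 1 with vehicle replicate 2). *mino*, an acyltransferase of triglyceride synthesis, rose from 34.2, 37.9 and 48.5 to 137, 77.1 and 102 RPKM (log2 fold change 1.34, adjusted p = 0.0075). The fatty acid synthase *FASN1* (log2 fold change -1.04, adjusted p = 0.0482) and the desaturase *Desat1* (log2 fold change 1.00, adjusted p = 0.0644) moved apart, and the calls were lost for *FASN1* without vehicle replicate 1 or 4 or AMPH replicate 2 or 3 (adjusted p 0.101 to 0.149) and for *Desat1* without vehicle replicate 1 or 3 or AMPH replicate 3 (adjusted p 0.142 to 0.147). Sugar genes counted 5 rises and 7 falls in 21 (3 and 1 with vehicle replicate 2). *Tps1*, which makes trehalose, the blood sugar of insects, went from 123, 82.1 and 148 to 535, 314 and 515 RPKM (log2 fold change 1.94, SE 0.27, adjusted p = 0.00404), and *Treh*, which splits it, from 326, 187 and 230.2 to 96.7, 109 and 93.6 RPKM (log2 fold change -1.27, SE 0.20, adjusted p = 0.00638). Vehicle replicate 2 was at 95.5 RPKM for *Treh*, within the AMPH range. The trehalose transporter *Tret1-1*, the maltase *Mal-B2* and the amylase *Amy-p* were higher by 1.54, 1.73 and 1.89. Of the 5 gut markers only *Amy-p* and Amy-d passed the filter, and the summed level of the gut list was 8.80 to 19.4 RPKM on vehicle and 22.9 to 91.9 RPKM on AMPH. The part of gut RNA in these values was not tested.

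Among changed genes the largest losses in RPKM were those of *Adh*, *EbpIII*, *Obp19d*, *Drsl5* and *Adhr*. *Adh*, alcohol dehydrogenase, went from 3937, 2897 and 3098 to 1140, 1415 and 1196 RPKM (log2 fold change -1.40, SE 0.17, adjusted p = 0.00231), and *Adhr*, which overlaps it and cannot be separated from it by these values, from 1979, 1485 and 1582 to 579, 724 and 613 RPKM. The largest gains in RPKM among changed genes were those of *Obp99b*, *CG4716*, *to*, *GstE1* and *Arc1*. *CG4716* was at 1786, 972 and 1845 RPKM on vehicle and 4028, 2541 and 3262 on AMPH (log2 fold change 1.13, adjusted p = 0.0382), its call was lost without AMPH replicate 3 (adjusted p 0.125), and vehicle replicate 2 was at 3385 RPKM, among the AMPH libraries.

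The insulin and TOR list had 6 rises and 6 falls in 27 (1 and 1 with vehicle replicate 2), 44.4% called against 19.1% of all genes. *Ilp5*, an insulin-like peptide of the brain whose level is known to fall in starved flies, went from 27.9, 35.1 and 19.6 to 6.65, 10.5 and 5.52 RPKM (log2 fold change -1.74, SE 0.26, adjusted p = 0.00517). *Thor*, the translation inhibitor 4E-BP and a target of FOXO, went from 160.4, 86.2 and 198 to 535, 373 and 365 RPKM (log2 fold change 1.57, adjusted p = 0.0144), but vehicle replicate 2 at 380.4 RPKM lay inside the AMPH range and the adjusted p with it was 0.379. *InR*, the insulin receptor, was at 5.61, 6.41 and 6.10 RPKM on vehicle and 12.2, 9.51 and 8.74 on AMPH (log2 fold change 0.65, adjusted p = 0.018). With vehicle replicate 2, at 2.28 RPKM, the adjusted p of *InR* was 0.306. *trbl*, which restrains insulin signalling through Akt, rose from 9.55, 7.33 and 9.15 to 36.1, 22.6 and 31.4 RPKM (log2 fold change 1.66, SE 0.18, adjusted p = 0.0014), and it passed in each leave-one-out fit and with vehicle replicate 2.

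Odorant-binding proteins, small secreted proteins that carry odorants and other ligands, fell in 18 of 30 cases and rose in 1, a share of 63.3% against 19.1% of all genes, with a median log2 fold change of −0.65 (6 falls with vehicle replicate 2). *Obp44a* had the largest fall. It was at 961, 754 and 932 RPKM on vehicle and at 132, 144 and 138 on AMPH, where the libraries lay close together (log2 fold change -2.66, SE 0.13, adjusted p = 5.75e-05). *Obp57a* went from 86.2, 108 and 71.4 to 19.8, 20.4 and 32.1 RPKM (log2 fold change -1.85, adjusted p = 0.00195) and *Obp56a* from 5.58, 9.73 and 4.91 to 1.04, 1.96 and 1.08 RPKM (log2 fold change -1.68, adjusted p = 0.00535). *Obp19d*, at 2917, 2258 and 3262 RPKM on vehicle and 1392, 1817 and 1488 on AMPH, is one of the most abundant of the family, and its call was lost without AMPH replicate 3 (adjusted p 0.106). *Obp99b* was the member that rose, from 635, 806 and 489 to 4269, 3539 and 1036 RPKM (log2 fold change 1.99, SE 0.49, adjusted p = 0.0374). Its call was lost without vehicle replicate 4 or AMPH replicate 2 (adjusted p 0.112 to 0.123), and vehicle replicate 2 stood at 11700 RPKM, above all other libraries.

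Cuticle proteins fell in 12 of 33 cases and rose in 0 by limma, 1 at an unadjusted p under 0.05 (7 falls with vehicle replicate 2). In all 36.4% were called, against 19.1% of all genes. *obst-A*, a chitin-binding protein that organises the cuticle, went from 13.2, 16.5 and 12.8 to 0.677, 0.520 and 1.04 RPKM (log2 fold change -3.12, SE 0.15, adjusted p = 5.75e-05). *Cpr76Bc*, *Cpr60D* and *Cpr49Ae*, members of the largest family of chitin-binding cuticle proteins, had log2 fold changes of -2.36, -2.13 and -1.78, with AMPH libraries below all vehicle libraries. *Cpr76Bc*, like *Lsp2* above, was under 1 RPKM in all AMPH libraries and passed the filter through vehicle alone. *Nplp3*, a secreted peptide precursor, went from 255, 219.6 and 198 to 20.3, 45.4 and 35.2 RPKM (log2 fold change -2.77, adjusted p = 0.000943).

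Antimicrobial peptides fell in 6 of 15 cases, with 0 rises by limma, 1 at an unadjusted p under 0.05 (3 falls with vehicle replicate 2, and 2 rises and 6 falls after quantile normalization). Of all genes tested 19.1% were called, 12.1% lower and 6.98% higher. The share of falls among the antimicrobial peptides was thus above that of all genes. *Drsl5*, a Drosomycin-like peptide, was at 1928, 1896 and 2062 RPKM on vehicle and at 771, 796 and 718 on AMPH (log2 fold change -1.36, SE 0.12, adjusted p = 0.00073), a narrow range in each group. *Drsl4* went from 103, 262 and 171 to 16.3, 17.4 and 55.4 RPKM (log2 fold change -2.68, adjusted p = 0.0121), and the bomanin *BomBc1* from 152, 288 and 201 to 57.3, 39.5 and 89.7 RPKM (log2 fold change -1.79, adjusted p = 0.0109). *Mtk* had a log2 fold change of -1.34, and its call was lost without AMPH replicate 2 or 3 (adjusted p 0.103 to 0.108). Of 10 peptidoglycan recognition genes 2 fell and 1 rose, a share called above the 19.1% of all genes. *PGRP-SB1*, a secreted member, had a log2 fold change of -1.54. The humoral stress peptide *TotA* differed widely among libraries of 1 group. It was at 2075, 668 and 5839 RPKM on vehicle and at 91.1, 379 and 7985 on AMPH (log2 fold change -1.62, adjusted p = 0.535), and without AMPH replicate 3, the highest library, the adjusted p was 0.0937. Of the 9 Turandot and JAK-STAT genes only the receptor *dome* was called by limma, 11.1% of the list against 19.1% of all genes. The call of *dome* (log2 fold change -0.42, adjusted p = 0.0354) was lost without vehicle replicate 4 or AMPH replicate 3 (adjusted p 0.112 to 0.124).

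The takeout family, secreted proteins resembling juvenile hormone carriers, had 6 falls in 12, and *to*, which gave the family its name, rose (3 falls with vehicle replicate 2). In all 58.3% were called, against 19.1% of all genes. *Jhbp13* went from 319.7, 323 and 381 to 48.1, 65.4 and 72.0 RPKM (log2 fold change -2.46, SE 0.16, adjusted p = 0.0002), and *Jhbp11* and *Jhbp1* had log2 fold changes of -1.46 and -1.34. *to*, which links the clock to feeding, was at 958, 936 and 1518 RPKM on vehicle and at 2904, 2293 and 3001 on AMPH (log2 fold change 1.29, SE 0.22, adjusted p = 0.00916), but vehicle replicate 2 at 2365 RPKM was above AMPH replicate 2.

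In the dopamine list 7 of 15 genes fell and 0 rose by limma, also at an unadjusted p under 0.05 (2 falls with vehicle replicate 2). The share called was 46.7%, against 19.1% of all genes. *ple*, tyrosine hydroxylase and the rate-limiting enzyme of dopamine synthesis, was at 17.9, 17.5 and 21.6 RPKM in vehicle replicates 1, 3 and 4 and at 5.90, 7.46 and 7.26 on AMPH (log2 fold change -1.34, SE 0.13, adjusted p = 0.000854). Vehicle replicate 2 was at 6.79 RPKM, inside the AMPH range, and with it the adjusted p was 0.345. *Ddc*, which makes dopamine in the next step, stood at 123, 126 and 128 RPKM on vehicle and 118, 136 and 129 on AMPH (log2 fold change 0.02, adjusted p = 0.904). The *Dat* gene of the files, which is dopamine N-acetyltransferase and not the transporter, went from 111, 84.3 and 141 to 35.5, 35.7 and 32.6 RPKM (log2 fold change -1.64, SE 0.18, adjusted p = 0.00145), with vehicle replicate 2 at 123 and an adjusted p of 0.00867 with it. The genes that conjugate dopamine to beta-alanine and release it again, *e* and *t*, had log2 fold changes of -0.85 and -0.89, and that of *t* lost its call without vehicle replicate 3 or 4 or AMPH replicate 1 or 2 (adjusted p 0.188 to 0.24). *Pu*, which opens the synthesis of the cofactor of *ple*, and *b*, which makes beta-alanine, had log2 fold changes of -0.68 and -0.62, and the call of *Pu* was lost without vehicle replicate 1 or 4 or AMPH replicate 3 (adjusted p 0.102 to 0.126). *Vmat*, the vesicular monoamine transporter, went from 75.6, 85.7 and 99.4 to 71.01, 58.6 and 48.6 RPKM (log2 fold change -0.55, adjusted p = 0.0669), a call lost without vehicle replicate 3 or 4 or AMPH replicate 2 or 3 (adjusted p 0.123 to 0.206). The 4 dopamine receptors tested, Dop1R1, Dop1R2, Dop2R and DopEcR, were not called.

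Other monoamine, synaptic and channel genes had few calls. Called were 6.25% of serotonin, octopamine and tyramine genes, 10.5% of vesicle release genes and 5.88% of channel genes, against 19.1% of all genes. Of 16 serotonin, octopamine and tyramine genes only *5-HT2A*, a serotonin receptor, was called (log2 fold change -0.66, adjusted p = 0.0146, and adjusted p = 0.63 with vehicle replicate 2). Of 19 genes of vesicle release *nSyb* and *comt* were called, with log2 fold changes of -0.41 and -0.30, and of 17 channel genes *slo*, with -0.36. Those calls were lost for *nSyb* without vehicle replicate 1, 3 or 4 or AMPH replicate 1 or 3 (adjusted p 0.122 to 0.204), for *comt* without vehicle replicate 1, 3 or 4 or AMPH replicate 1, 2 or 3 (adjusted p 0.145 to 0.21) and for *slo* without vehicle replicate 1, 3 or 4 or AMPH replicate 2 or 3 (adjusted p 0.116 to 0.179), and none passed with vehicle replicate 2. Of 27 neuropeptide genes 6 fell and 1 rose, 25.9% against 19.1% of all genes (2 falls with vehicle replicate 2). Apart from *Ilp5* the largest falls were those of *CCHa2*, a nutrient-related peptide, from 18.6, 19.6 and 24.2 to 6.17, 8.55 and 8.49 RPKM (log2 fold change -1.32, adjusted p = 0.00178), and *SIFa* (log2 fold change -0.67, adjusted p = 0.013). The clock neuropeptide *Pdf* went from 201, 186 and 158 to 142, 87.2 and 138 RPKM (log2 fold change -0.59, adjusted p = 0.0958), and its call was lost without vehicle replicate 1, 3 or 4 or AMPH replicate 2 or 3 (adjusted p 0.133 to 0.219).

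*Arc1* and *Arc2*, retrotransposon-derived capsid genes regulated by neuronal activity and known to respond to starvation, rose, and the other activity-regulated genes did not. *Arc1* was at 51.2, 55.7 and 35.9 RPKM in vehicle replicates 1, 3 and 4, at 119 in vehicle replicate 2 and at 784, 628 and 975 on AMPH (log2 fold change 4.04, SE 0.21, adjusted p = 6.42e-05). *Arc2* went from 8.55, 11.02 and 5.20 to 42.8, 25.96 and 48.5 RPKM (log2 fold change 2.12, SE 0.29, adjusted p = 0.00376), and *CR10102*, 1009 bases from *Arc1* on the same strand, from 19.2, 20.6 and 13.3 to 197, 243 and 328 RPKM (log2 fold change 3.77, adjusted p = 0.000118). Of the 13 activity-regulated genes 2 rose and 3 fell (1 and 0 with vehicle replicate 2), 38.5% called against 19.1% of all genes. The 3 were *CG46385*, *Hr38* and *heca*, with log2 fold changes of -0.51, -0.49 and -0.34, the calls were lost for *Hr38* without vehicle replicate 4 or AMPH replicate 3 (adjusted p 0.13 to 0.142) and for *heca* without vehicle replicate 1, 3 or 4 or AMPH replicate 1, 2 or 3 (adjusted p 0.12 to 0.247), and vehicle replicate 2 was below every AMPH library for *CG46385* and *Hr38*.

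Markers of glia were lower as a group. The share called was 87.5% of glial, 10.0% of neuronal and 37.5% of muscle markers, against 19.1% of all genes. Of 8 tested, 7 fell and 0 rose by limma, also at an unadjusted p under 0.05 (2 falls with vehicle replicate 2), and their summed level was 609 to 823 RPKM on vehicle and 451 to 462 on AMPH. Vehicle replicate 2 was at 462 RPKM. *repo*, the regulator that defines glia, went from 24.5, 17.8 and 23.9 to 13.1, 13.1 and 13.4 RPKM (log2 fold change -0.69, adjusted p = 0.0143, and 0.849 with vehicle replicate 2), and the astrocyte gene *alrm* from 9.98, 6.77 and 7.82 to 3.63, 3.15 and 3.14 RPKM (log2 fold change -1.08, SE 0.14, adjusted p = 0.00357). *wrapper*, of cortex glia, and the glutamine synthetase *Gs2* had log2 fold changes of -1.07 and -0.76. Of 10 neuronal markers only *nSyb* was called, and the summed level was 1224 to 1341 RPKM on vehicle and 942 to 1154 on AMPH, with vehicle replicate 2 at 464 RPKM. Muscle markers counted 3 falls in 8, among them myosin heavy chain *Mhc*, from 163, 161 and 150.3 to 64.2, 83.5 and 71.4 RPKM (log2 fold change -1.11, adjusted p = 0.00153), and the flight-muscle actin *Act88F* (log2 fold change -1.14, adjusted p = 0.0278). The call of *Act88F* was lost without AMPH replicate 3 (adjusted p 0.101), and vehicle replicate 2 was at 43.2 RPKM for *Mhc*. The sum was 1018 to 1251 RPKM on vehicle and 857 to 982 on AMPH. The sums of the neuronal, glial and muscle markers, and of the photoreceptor markers below, were thus lower in every AMPH library than in vehicle replicates 1, 3 and 4, and the part of tissue makeup in the other gene groups was not tested.

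*ninaE*, the main rhodopsin of the compound eye, was at 26650, 27160 and 26090 RPKM on vehicle and 22990, 21560 and 21680 on AMPH (log2 fold change -0.27, adjusted p = 0.333), and its log2 fold change was 0.00 after quantile normalization. *Rh2*, the opsin of the ocelli, went from 82.5, 38.4 and 119 to 5.96, 6.67 and 30.1 RPKM (log2 fold change -2.63, SE 0.60, adjusted p = 0.0285), with AMPH replicate 3 nearest to vehicle. Of 26 phototransduction genes 10 fell and 0 rose by limma, also at an unadjusted p under 0.05 (2 falls with vehicle replicate 2). In all 38.5% were called, against 19.1% of all genes. The corneal protein gene *retinin* went from 455, 286 and 292 to 89.9, 143 and 145 RPKM (log2 fold change -1.44, adjusted p = 0.00908). *ninaB*, which cleaves carotenoids for the chromophore, and *norpA*, the phospholipase of phototransduction, had log2 fold changes of -0.85 and -0.68. For *norpA* vehicle replicate 2 was at 76.2 RPKM, below every AMPH library, and with it the adjusted p was 0.948. The summed photoreceptor markers were 53240 to 56050 RPKM on vehicle and 44760 to 47380 on AMPH, with vehicle replicate 2 at 38360.

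**Figure D4:**
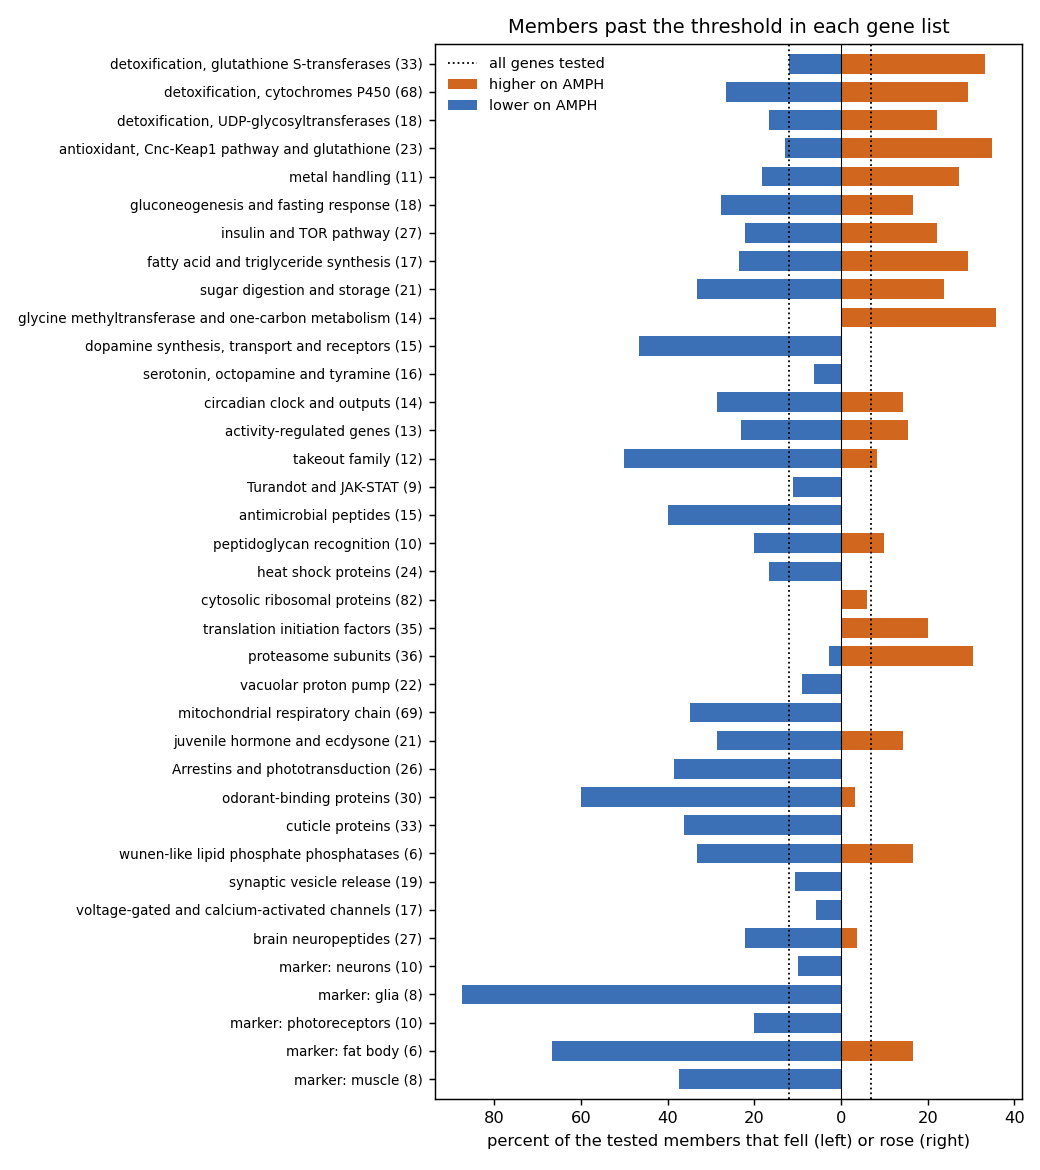
Share of the tested members of each gene list that fell (left, blue) or rose (right, orange) on AMPH in *DAT* mutant heads, in percent, for lists with at least 6 tested members (number in brackets). Dotted lines mark the shares among all genes tested, 12.1% lower and 6.98% higher.

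Genes of protein turnover and of the respiratory chain moved in small steps. Called were 33.3% of proteasome subunits and 34.8% of respiratory chain genes, against 19.1% of all genes. The share of translation initiation factors called, 7 of 35, was close to that of all genes. Of 36 proteasome subunits 11 rose and 1 fell, and 33 of the 36 had a fold change above 0. *Prosbeta4* and *Prosalpha6* of the core particle were higher by 0.67 and 0.63 on the log2 scale, and their calls were lost without vehicle replicate 1 (adjusted p 0.104) and without vehicle replicate 4 (adjusted p 0.102). The one that fell was *Rpt4R*, a testis-type paralogue, from 5.34, 5.11 and 3.03 to 1.52, 1.65 and 2.27 RPKM. Of 35 translation initiation factors 7 rose and 0 fell by limma (3 fell at an unadjusted p under 0.05), with *eIF6* (0.49), *eIF3c* (0.49) and *eIF3l* (0.45) among them, and of 82 cytosolic ribosomal proteins 5 rose and 0 fell (1 at an unadjusted p under 0.05): *RpL10*, *RpL5*, *RpL9*, *RpL15* and *RpS3A*. *RpL10* went from 675, 651 and 647 to 1095, 1011 and 1140 RPKM (log2 fold change 0.72, SE 0.12, adjusted p = 0.00776), while vehicle replicate 2 was at 1228 RPKM. The ribosomal list had a median log2 fold change of −0.01 and 6.10% of members called, against 19.1% of all genes. Its calls were lost for *RpL5* without vehicle replicate 4 or AMPH replicate 3 (adjusted p 0.109 to 0.118), for *RpL9* without vehicle replicate 4 or AMPH replicate 2 (adjusted p 0.108 to 0.124), for *RpL15* without vehicle replicate 4 or AMPH replicate 2 or 3 (adjusted p 0.1 to 0.109) and for *RpS3A* without vehicle replicate 4 or AMPH replicate 1, 2 or 3 (adjusted p 0.104 to 0.167), and vehicle replicate 2 was above every AMPH library for all 5. Of 69 genes of the mitochondrial respiratory chain 24 fell and 0 rose by limma (1 at an unadjusted p under 0.05), with a median of −0.33. *COX7AL2* fell from 73.8, 57.5 and 37.7 to 26.8, 25.8 and 28.4 RPKM (log2 fold change -0.98, adjusted p = 0.0247), and *ND-13B* and *UQCR-C2* had log2 fold changes of -0.68 and -0.54, where *ND-13B* lost its call without vehicle replicate 1 or 4 or AMPH replicate 2 (adjusted p 0.108 to 0.122). With vehicle replicate 2 included, 0 members of these 4 lists passed by limma, and at an unadjusted p under 0.05 there were 9 rises in the proteasome, 5 rises in the initiation factors and 15 falls in the respiratory chain. After quantile normalization the counts were 19 rises and 1 fall for the proteasome and 1 rise and 18 falls for the respiratory chain.

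Among the chaperones 4 of 24 heat shock genes fell (16.7% called, against 19.1% of all genes) and 0 rose by limma, 1 at an unadjusted p under 0.05 (with vehicle replicate 2, 0 passed and 2 were lower at an unadjusted p under 0.05). *Hsp83*, the fly Hsp90, went from 185, 197 and 174 to 123, 103 and 106 RPKM (log2 fold change -0.74, SE 0.12, adjusted p = 0.00638) and *Hsc70-3*, the chaperone of the endoplasmic reticulum, from 125, 131 and 125 to 87.4, 86.01 and 73.5 RPKM (log2 fold change -0.62, adjusted p = 0.0101), and vehicle replicate 2 was below the AMPH libraries for both, at 83.2 and 62.2 RPKM. The small chaperones *Hsp23* and *Hsp67Ba* had log2 fold changes of -0.51 and -0.40, and lost their calls without vehicle replicate 4 (adjusted p 0.107) and without vehicle replicate 3 or 4 or AMPH replicate 1 or 3 (adjusted p 0.109 to 0.158). Of 22 subunits of the vacuolar proton pump *VhaM9.7-a* (-0.44) and *VhaAC39-1* (-0.34) fell, 9.09% of the list. Those calls were lost without vehicle replicate 1 or 4 or AMPH replicate 2 or 3 (adjusted p 0.111 to 0.123) and without vehicle replicate 1, 3 or 4 or AMPH replicate 2 or 3 (adjusted p 0.131 to 0.255).

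Hormone and clock genes moved in both directions, with 42.9% of each list called against 19.1% of all genes. *MsrA*, a methionine sulfoxide reductase inducible by ecdysone, was at 63.8, 40.99 and 45.7 RPKM on vehicle and at 340.1, 363 and 376 on AMPH (log2 fold change 2.84, SE 0.17, adjusted p = 0.000118). *Jheh1*, a juvenile hormone epoxide hydrolase, rose from 59.3, 39.8 and 58.5 to 158, 133 and 118 RPKM (log2 fold change 1.37, adjusted p = 0.00335), and the juvenile hormone esterase genes *Jhe* and *Jhedup* fell, with log2 fold changes of -1.36 and -1.40. In all, 3 of 21 genes of this list rose and 6 fell (2 and 1 with vehicle replicate 2). Of 14 clock genes and outputs 2 rose and 4 fell (with vehicle replicate 2, 0 passed by limma and 2 had an unadjusted p under 0.05). *cry*, the blue-light receptor of the clock, went from 88.6, 83.4 and 97.97 to 56.7, 50.2 and 50.3 RPKM (log2 fold change -0.77, SE 0.11, adjusted p = 0.00451) and the activator *Clk* from 9.01, 8.16 and 8.38 to 3.70, 6.298 and 5.60 RPKM (log2 fold change -0.64, adjusted p = 0.0423), where the call of *Clk* was lost without vehicle replicate 1 or 4 (adjusted p 0.113). With vehicle replicate 2 the adjusted p of *cry* was 0.735. The hour of collection was not given in the sources used here. Among the 6 lipid phosphate phosphatases related to wunen, *CG11425* rose from 7.09, 5.81 and 8.12 to 218, 91.3 and 96.8 RPKM (log2 fold change 3.98, SE 0.31, adjusted p = 0.000465), while *laza* (-0.89) and *wun2* (-0.52) were lower, a call that was lost for *wun2* without vehicle replicate 1 or 4 or AMPH replicate 1 or 3 (adjusted p 0.117 to 0.187).

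WT flies given AMPH in the same way served only to show where the mutant differed. In WT, with 4 AMPH libraries and vehicle replicates 2, 3 and 4, 1780 of 10032 genes (17.7%) passed. WT vehicle replicate 1 was left out, as in the comparisons of the study, for which no reason is given in the sources used here. With it, 2513 of 10100 genes passed. Of the 1901 genes changed in the *DAT* mutant, 992 (52.2%) were also called in WT, which is 55.7% of the WT calls, and 9 of the 992 had the opposite sign. The strains share no library. Across 9775 genes tested in both, the log2 fold changes had a Pearson correlation of 0.767 and a Spearman correlation of 0.708, as a description over genes, which are not independent replicates. The genes that rose in the mutant had a median log2 fold change of 0.62 in the mutant and 0.53 in WT, and those that fell had −0.59 and −0.49.

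A test of the difference between the responses (the mutant minus WT, as the interaction term of all 4 groups) called 19 of 10332 genes (0.184%), 10 higher and 9 lower in the mutant. At an unadjusted p under 0.05, 570 of the 10332 genes passed, where a share of about 0.05 would pass if no gene differed. With the unused vehicle library of each strain included, 6 genes were called: *GstE1*, *CG6908*, *to*, *CG11854*, *CG9150* and *CG15093*. Leaving out single libraries gave 8 to 30 calls. The count was 8 without *DAT* mutant vehicle replicate 1, 10 without *DAT* mutant vehicle replicate 3 or AMPH replicate 3 or WT vehicle replicate 3 or 4, 12 without *DAT* mutant vehicle replicate 4 and 30 without WT AMPH replicate 1. *GstE1*, *CG6908*, *mRpL37*, *CG5704*, *CG32512*, *Kr-h1* and *Cipc* were called in each of these fits without a single library. With WT vehicle replicate 1 added and *DAT* mutant vehicle replicate 2 still left out, 16 genes were called, 15 of them among the 19, and *CG16898*, *CG32512*, *CG10226* and *Kr-h1* were not.

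*GstE1* (2R, 14285895 to 14286729 of dm3) had the largest difference. In WT it was at 21.2, 23.7 and 29.6 RPKM in vehicle replicates 2, 3 and 4 and at 13.5, 24.5, 20.3 and 17.4 in AMPH replicates 1 to 4, so that the WT groups overlapped and the mutant groups, given above, did not (difference 4.23, SE 0.34, adjusted p = 0.000273, and 4.16 over all 15 libraries). The level on vehicle also differed: all 4 mutant vehicle libraries were above all 4 of WT. *to* (3R, 21065902 to 21067175) averaged 96.6 RPKM over the 3 vehicle libraries of WT, the lowest of them at 69.6, and was at 33.2, 10.5, 19.1 and 38.0 RPKM on AMPH, a fall in WT, while it rose in the mutant from a higher level (difference 3.30, SE 0.53, adjusted p = 0.0399). *CG11854*, with 595 bases between it and *to* on the same strand, was at 2.18, 2.38 and 2.41 RPKM on vehicle and 1.38, 0.823, 1.28 and 2.11 on AMPH in WT, against 53.4, 51.7 and 71.7 and 151, 145 and 336 in the mutant (difference 2.22, SE 0.38, adjusted p = 0.0581). *bam*, on the other strand, overlaps the end of *CG11854*, and was under 0.2 RPKM in all WT libraries, against 0.671, 1.11 and 1.26 RPKM on vehicle and 2.90, 3.79 and 5.76 on AMPH in the mutant (difference 1.42, SE 0.26, adjusted p = 0.084). It passed the filter through the mutant libraries alone. At such WT levels a fall in WT could not be measured, so the difference of *bam* rests on the mutant values. As the use of strand in counting was not given in the sources used here, reads of this overlap cannot be assigned to *bam* or *CG11854*.

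*Arc1* (2R, 10245428 to 10247799) was at 174, 289 and 210.2 RPKM on vehicle and 911, 688, 333 and 459 on AMPH in WT, against a lower vehicle level and a similar AMPH level in the mutant (difference 2.70, SE 0.46, adjusted p = 0.0496). *CR10102* beside it went from 64.04, 118 and 62.4 to 317, 256, 159 and 161 RPKM in WT (difference 2.32, SE 0.43, adjusted p = 0.084). Neither passed with all 15 libraries (adjusted p = 0.41 and 0.546). *CG6908* rose in both strains, from 34.6, 44.7 and 32.2 to 134, 168, 135 and 109 RPKM in WT and from 26.7, 19.6 and 22.4 to 225, 269.5 and 264 RPKM in the mutant (difference 1.57, SE 0.23, adjusted p = 0.0292). *mRpL37*, a mitochondrial ribosomal protein, was at 16.2, 15.4 and 17.9 RPKM on vehicle and 16.4, 11.3, 13.96 and 14.9 on AMPH in WT, and at 14.7, 13.6 and 13.8 and 36.5, 50.5 and 31.04 in the mutant (difference 1.61, SE 0.22, adjusted p = 0.0292), where vehicle replicate 2 was at 36.5 RPKM. *CG5704* and *CG10226* had differences of 1.23 and 1.11.

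In the other direction, *CG15093* (2R, 14663174 to 14664546) fell in the mutant from 36.7, 25.9 and 35.1 to 7.64, 5.44 and 4.68 RPKM and stood at 24.3, 17.6 and 21.6 and 12.98, 19.6, 16.9 and 11.7 RPKM in WT (difference -1.83, SE 0.29, adjusted p = 0.0399). *CG9150* was at 3.61, 1.53 and 1.67 RPKM on vehicle and 8.98, 6.64, 4.89 and 9.16 on AMPH in WT, and at 21.6, 19.97 and 15.1 and 12.3, 9.89 and 10.6 in the mutant (difference -2.11, SE 0.34, adjusted p = 0.0399), so the strains moved in opposite directions. *cwo*, a repressor of the clock, went from 18.99, 14.4 and 14.6 to 42.7, 49.1, 60.2 and 42.7 RPKM in WT, while the mutant libraries were at 36.3, 30.2 and 34.4 on vehicle and 40.1, 47.3 and 40.6 on AMPH (difference -1.21, SE 0.20, adjusted p = 0.0485). *Kr-h1*, a transcription factor of the juvenile hormone response, went from 22.4, 19.5 and 20.5 to 39.7, 39.1, 44.1 and 31.6 RPKM in WT and from 35.6, 34.4 and 39.1 to 27.2, 28.8 and 29.01 RPKM in the mutant (difference -1.20, SE 0.16, adjusted p = 0.024). Within the mutant the adjusted p of *Kr-h1* was 0.051, and it stayed under 0.1 in 1 of the 6 fits without 1 library (adjusted p up to 0.18). *CG16898* and *CG32512* had differences of -1.81 and -1.63, and *Cipc* and *Ir* of -1.07 and -0.78. The lysine tRNA gene *tRNA:Lys-CTT-1-7* was called (difference -2.24) and was listed in the mutant at 3.21, 2.44 and 3.70 RPKM in vehicle replicates 1, 3 and 4 and at 0 in vehicle replicate 2 and all AMPH libraries. It is a very short gene (2R, 2835243 to 2835315), so these levels rest on few reads of polyadenylated RNA. In the mutant it reached the filter through vehicle alone.

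Of the 19 genes 6 lie on chromosome 2R, which carries *DAT* and 20.7% of the genes tested, and 8 lie on 3R, which holds 24.4%. *GstE1* lies 1.84 Mb and *CG15093* 2.22 Mb from *DAT* on one side, and *Arc1* 2.20 Mb from it on the other. An effect of the missing transporter and one of DNA that came with the fumin allele cannot be told apart for these genes.

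**Figure D5:**
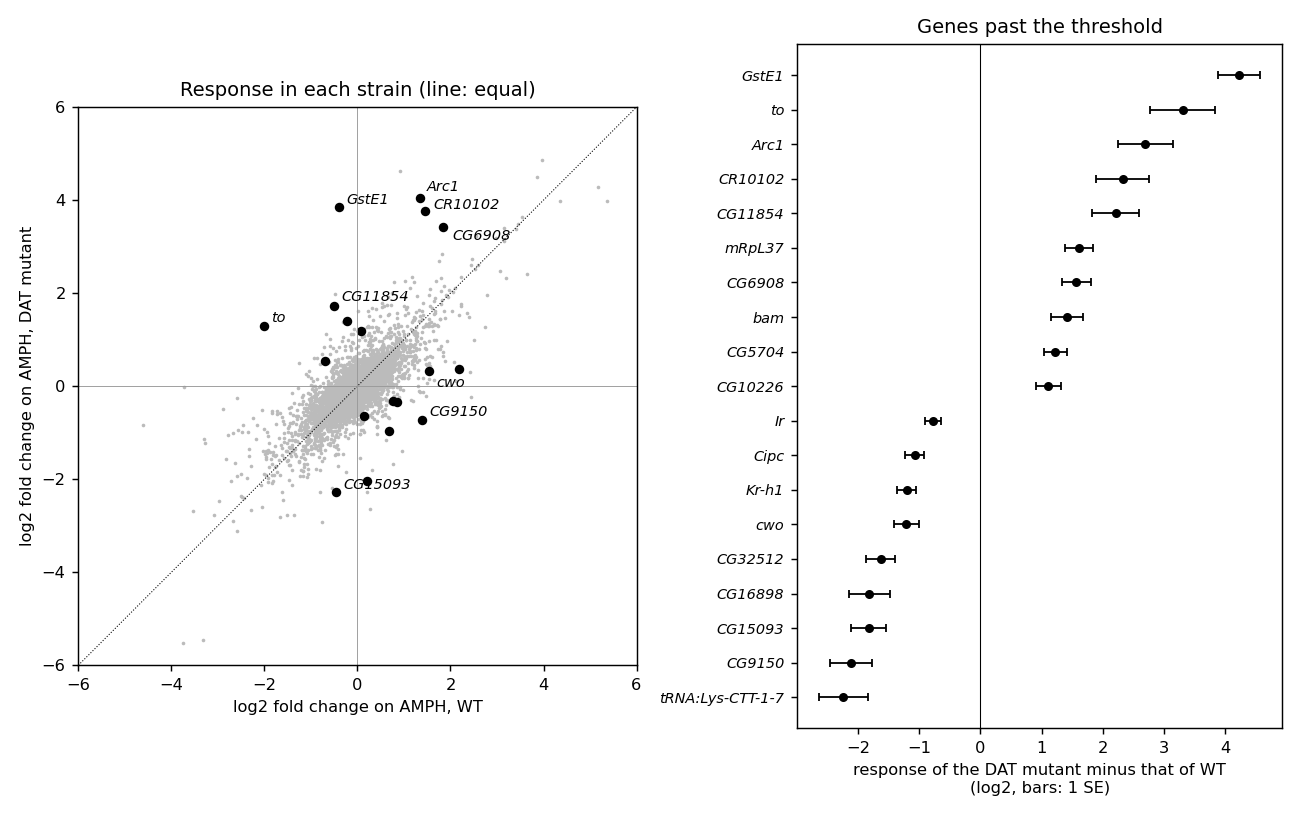
Left, log2 fold change on AMPH in *DAT* mutant heads (y axis) against that in WT heads (x axis) for the genes tested in both, with the genes of the difference except *bam*, which was not tested in WT, as black points and the line of equal response dotted. Right, the difference (mutant minus WT, log2) of each of the 19 genes with 1 SE, where *GstE1* at 4.23 is the largest.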

How the data were processed

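RPKM values per transcript, per the labels and the methods of the study, were made by the authors from Ion Torrent reads of polyadenylated RNA aligned with tmap to dm3 (Drosophila melanogaster), and were deposited as 1 table of 18960 transcripts in 15 libraries. The strand setting of the counting and the filters were not given in the sources used here. As the files hold no counts, depth was read from the step sizes of low values in transcripts of 1 exon, and count models were not used. For each of 11257 genes the transcript with the highest mean RPKM was kept. Symbols of 10188 genes were matched by gene identifier, those of a further 566 through RefSeq synonyms, and 503 kept the symbol of the files.

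Values were tested as log2(RPKM + 1) with limma-trend 3.58.1 in R 4.3.3, after a filter of at least 1 RPKM in 3 libraries, at an adjusted p under 0.1 (Benjamini-Hochberg). The difference between strains was the interaction term over 13 libraries. Python 3.11.15, pandas 2.3.3, numpy 2.4.6 and matplotlib 3.10.9 were used for tables and figures, and the fitting was tested on simulated data. Alternatives were another pseudocount (0.1), other filters, median centring, quantile normalization, all transcripts, a threshold of 0.05, all groups in 1 fit, the replicate number as a block, each library left out, and vehicle replicate 2 included. Vehicle replicate 2 with quantile normalization, and WT vehicle replicate 1 included, were chosen after seeing the data.

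Genes were named by these rules: the 12 largest rises and falls in log2 fold change among changed, non-overlapping genes averaging at least 5 RPKM; the 5 largest gains and losses in RPKM among changed genes; up to 4 changed members of each list or members that define it; DAT, *ple*, *Ddc* and *Vmat*; and the 5 largest differences between strains in each direction. *GstE3*, *GstZ2*, *GstE12*, *GstE2*, *GstE14*, *Cyp313a1*, *Cyp4d21*, *Gclc*, *Cbs*, *Treh*, *InR*, *TotA*, Pu, b, *heca*, *RpS3A*, *cwo*, *mRpL37*, *bam*, *CG5704*, *CG10226*, *Kr-h1*, *Cipc* and *Ir* were named after their values were seen. The members and gene lists were chosen with earlier results of these data known.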

Additional observations from a re-analysis of the deposited data

Results flagged for a closer look

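Genes named in the report were checked for a library that lay far from the other 3 of its group, as the gap to its nearest neighbour divided by the range of the group. Chance gives such a gap in about 1 in 20 groups. It was found in 26 of 182 groups. In 23 of the 26 the group was *DAT* mutant vehicle, which made up 143 of the 182 as single genes. Vehicle replicate 2 was the distant library in 19 genes. It was lowest for *Gclc* (0.845), *ninaE* (0.899), *CG46385* (0.884), *Ddc* (0.927), *Clk* (0.889), *nSyb* (0.907), *comt* (0.879), *slo* (0.948), *Mhc* (0.897) and *Hsc70-3* (0.906). It was highest for *MtnB* (0.935), *Obp99b* (0.972), *SIFa* (0.833), *RpL10* (0.951), *RpL9* (0.907), *RpL15* (0.956), *RpS3A* (0.928), *Prosbeta4* (0.906) and *GstE2* (0.889). Its median RPKM over genes lay apart too, with a gap of 0.846.

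Other libraries of *DAT* mutant vehicle were distant for single genes: replicate 1 was highest for *Pepck1* (0.83) and lowest for *Hsp23* (0.858), and replicate 3 was lowest for *Jhbp1* (0.885). In WT vehicle, replicate 3 was highest for *CR10102* (0.903), replicate 2 for *CG9150* (0.937) and replicate 4 for *CG10226* (0.904).

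The AMPH response differed between the strains by the interaction test for 19 genes. On the log2 scale (mutant minus WT) the difference was 4.23 for *GstE1*, 3.30 for *to*, 2.70 for *Arc1*, 2.32 for *CR10102*, 2.22 for *CG11854*, 1.61 for *mRpL37*, 1.57 for *CG6908*, 1.42 for *bam*, 1.23 for *CG5704* and 1.11 for *CG10226*. It was -2.24 for *tRNA:Lys-CTT-1-7*, -2.11 for *CG9150*, -1.83 for *CG15093*, -1.81 for *CG16898*, -1.63 for *CG32512*, -1.21 for *cwo*, -1.20 for *Kr-h1*, -1.07 for *Cipc* and -0.78 for *Ir*.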

How the results depend on the processing

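The main count of the *DAT* mutant was 1901 genes (695 higher, 1206 lower). It was 276 (113 higher, 163 lower) with vehicle replicate 2, 481 (200 higher, 281 lower) with that library after quantile normalization, a combination chosen after seeing the data, 3862 (1173 higher, 2689 lower) over all transcripts, where genes with several transcripts count several times, and 1264 (452 higher, 812 lower) at a threshold of 0.05. Leaving out single libraries gave 1093 to 1687 genes, 414 to 570 higher and 679 to 1164 lower. The lowest of these counts came without vehicle replicate 4, and the cause was not tested. The other filters, pseudocount 0.1, median centring, quantile normalization and the fit of all 4 groups kept the count within 1.5 times. The difference between strains, 19 genes, was 6 over all 15 libraries, 16 with WT vehicle replicate 1 added, a fit chosen after seeing the data, and 8 to 30 without single libraries.

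Replicate numbers gave no pairing: the deviations of same-numbered libraries correlated at 0.156 (number 1) and -0.144 (number 3), or at 0.133, -0.198 and -0.246 for numbers 1, 2 and 3 with all 7 libraries. With the number as a block the count was 761 (372 higher, 389 lower), and 40 (27 higher, 13 lower) with all 7 libraries. In the main comparison only numbers 1 and 3 occur in both groups, so the fold changes behind the 761 rest on those libraries alone. The numbers follow the order of the samples in the series. The difference between strains had 27 genes with the block.

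The log2 fold change turned its sign with vehicle replicate 2 for *Hr38* (0.05), *comt* (0.15) and *slo* (0.01), and with that library after quantile normalization for *MtnB* (-0.08), *ninaE* (0.25), *nSyb* (0.08) and *comt* (0.18). It did so with the block over 7 libraries for *norpA* (0.08), *CG46385* (0.18), *Hr38* (0.27), *Clk* (0.04), *comt* (0.29) and *slo* (0.13). *ninaE* was at 0.00 after quantile normalization, and *Ddc* at -0.01 with the block and -0.02 to 0.08 without single libraries. These causes were not tested.

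*GstD5*, *Cyp12d1-p*, *Cyp12d1-d*, *Ugt37A3*, *Lsp2* and *Cpr76Bc* did not reach the filter when 1 library of their higher group was left out. Vehicle replicates 2, 3 and 4 were the shallowest libraries, which limits the precision of genes near 1 RPKM.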
